A study of Mus musculus with 12 samples.

Results

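Gene expression in epididymal white adipose tissue (eWAT) was compared between mice fed a high-fat diet (HFD) and mice fed a normal diet (ND), across all genes of the deposited transcriptome. The comparison took the 3 HFD libraries (mice 12, 15 and 18) and the 3 ND libraries (mice 2, 3 and 4), 6 of the 12 libraries of the series, each labelled with 1 number that is taken here as 1 mouse. All were male C57BL/6J mice, 21 weeks old, after 16 weeks on the ND with 12% or the HFD with 45% of kcal from fat. Per the methods, mice of both diets had fasted for 12 h at the end of the experiment. Neither group carried a transgene or received a supplement, and diet is the difference in treatment that the labels give between them. RNA was extracted from the tissue with no sorting of cells named in the sources, so each value is a sum over adipocytes, immune cells, vessels and stroma. Values are FPKM, the fragments of a transcript scaled to its length and to the library, summed here over the transcripts of each gene. Of 22947 genes in the table, the 12775 that reached 1 FPKM in 3 or more libraries of the series were tested.

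White adipocytes store triglyceride in a single large lipid droplet and release fatty acids when lipolysis is stimulated through adrenergic receptors. They also secrete adipokines such as leptin, adiponectin and adipsin. In obesity the epididymal depot of the mouse is known for enlarged adipocytes, for macrophages that surround dying adipocytes and take up their lipid, and for deposition of extracellular matrix.

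The depth of these libraries is unknown, since FPKM hold no counts of reads, and no counting interval can be given. Total FPKM over genes lay between 438994 and 451946 in the 6 libraries. These gene sums held 11.4%, 14.3% and 13.7% of all FPKM listed for ND mice 2, 3 and 4. For HFD mice 12, 15 and 18 they held 34.2%, 9.02% and 15.6%. The rest lay in transcript rows that were not summed into genes, so the even totals do not cover whole libraries. Shares of gene FPKM below refer to the summed part alone. In a principal component analysis of these 6 libraries the first component, which separated the diets, held 82.4% of the variance, and the second, which spread ND mouse 2 from ND mouse 3, held 7.21%. Pearson's r across genes was 0.978 to 0.984 among ND mice, 0.989 to 0.992 among HFD mice and 0.892 to 0.917 between the diets (genes are not independent replicates). The titles of ND mice 3 and 4 carry a letter R, whose meaning is not given in the sources used here, and no HFD title does. The column headings of these mice also share a number that may be a date and that the other 4 headings lack. For ND mouse 4 a column with the heading MD4 was used, which shares the number and the letter R with that mouse's title. HFD mouse 12 stood apart in genes of skin, with *Krt1*, a keratin of the epidermis, at 43.3 FPKM against at most 0.357 in the other 5 mice. *Scd1*, which encodes the main desaturase of adipocytes, is listed at 0 in every library of the series other than those of HFD mice, where it reached 9764, 10168 and 8592 FPKM. A listed 0 can be a failed estimate, so no fold change is given for *Scd1*, which counts among the rises below. The defining adipocyte markers *Adipoq*, *Plin1*, *Cidec* and *Cfd* were at 383 FPKM or more in every library, whereas the epididymis genes *Lcn5*, *Lcn8* and *Adam7* were at 0.323 FPKM or less.

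A gene was called higher or lower ("rose" or "fell" below) when limma on log2(FPKM + 1) gave an adjusted p under 0.05 (Benjamini-Hochberg over all 12775 genes) together with a fold change above 1.5. In the HFD group 1899 genes were called higher and 1374 lower, which is 14.9% and 10.8% of the genes tested and 25.6% in all. Rises were the larger changes. Among the called genes, the median log2 fold change was 1.03 for rises and -0.82 for falls, and the median over all genes tested was -0.02. A change of more than 4-fold was seen in 275 rising and 37 falling genes, and of more than 16-fold in 22 rising genes and 1 falling gene. Of the 698 genes with a mean over 100 FPKM, 20.6% rose and 21.2% fell. The diets did not overlap in 59.5% of the genes, with the HFD mice above all ND mice in 30.2% and below all of them in 29.3%. For a single gene, an exact permutation test of 3 mice against 3 cannot give a two-sided p below 0.1.

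**Figure D1:**
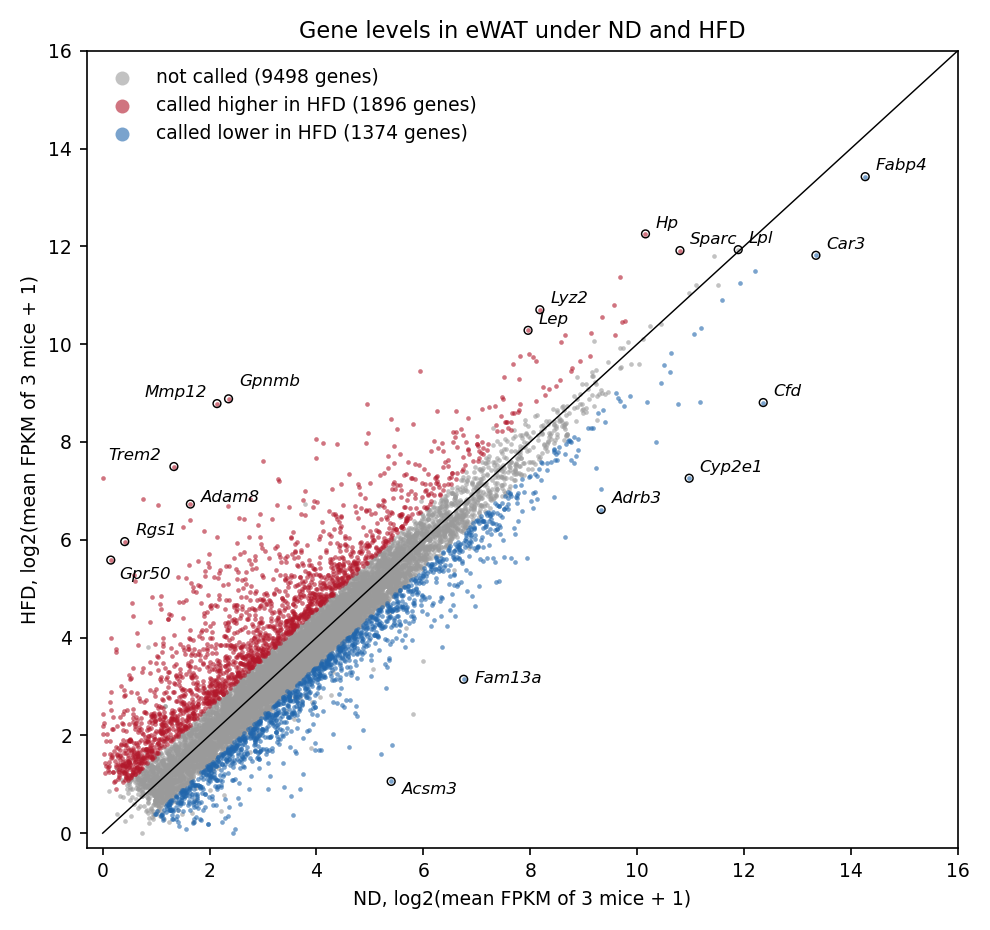
Mean level of each tested gene under ND (x axis) and HFD (y axis), both as log2(mean FPKM of 3 mice + 1), 1 point per gene, with called genes in red (higher in HFD) and blue (lower), and the line of equal level. The 7 genes listed at 0 in 1 library and at 20 FPKM or more in another are left out. *Mmp12* and *Gpnmb* lie far above the line at high HFD levels, and *Cfd*, *Cyp2e1* and *Acsm3* far below it.

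Genes listed at 0 in 1 library beside 20 FPKM or more in another were left out of the rankings below, which takes *Scd1*, *Tm4sf19* and *Itgad* out of the rises. *Tm4sf19* was at 0.124, 0 and 0.0752 FPKM under ND and 32.3, 29.0 and 35.9 FPKM under HFD. Of the genes ranked, the largest rise was that of *Mmp12*, the macrophage elastase (chromosome 9, 7344381 to 7369499 in GRCm38). It was at 2.06, 3.33 and 4.82 FPKM in ND mice 2, 3 and 4 against 526, 415 and 379 FPKM in HFD mice 12, 15 and 18. Every HFD mouse lay far above the highest ND mouse, and the log2 fold change was 6.68 (SE, the standard error, 0.63, limma with Benjamini-Hochberg adjusted p = 7.9e-06). *Gpnmb*, a membrane glycoprotein of lipid-laden macrophages (chromosome 6, 49036546 to 49070929), was at 5.54, 3.50 and 3.30 FPKM under ND against 541, 412 and 459 FPKM under HFD. The 250 bases before and 50 after the start site of these genes, the first of 2 windows RefSeq gives for *Mmp12* and the single window of *Gpnmb*, are shown as the start regions of the most raised genes. They are in GRCm38.p6 on the plus strand, chr9:7344147-7344446 and chr6:49036268-49036567. Capitals mark a match to 1 of the 3 motifs searched, GAGGAAG (the core bound by ETS factors such as PU.1), TGACTCA (the AP-1 site) and TCACGTG (the site of the MiT-TFE factors), on either strand.
*Mmp12*: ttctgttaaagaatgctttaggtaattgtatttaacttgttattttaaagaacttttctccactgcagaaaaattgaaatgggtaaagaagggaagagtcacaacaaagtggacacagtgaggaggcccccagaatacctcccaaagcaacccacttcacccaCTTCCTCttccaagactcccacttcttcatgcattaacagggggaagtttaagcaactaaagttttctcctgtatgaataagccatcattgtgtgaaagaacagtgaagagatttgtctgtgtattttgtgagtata
*Gpnmb*: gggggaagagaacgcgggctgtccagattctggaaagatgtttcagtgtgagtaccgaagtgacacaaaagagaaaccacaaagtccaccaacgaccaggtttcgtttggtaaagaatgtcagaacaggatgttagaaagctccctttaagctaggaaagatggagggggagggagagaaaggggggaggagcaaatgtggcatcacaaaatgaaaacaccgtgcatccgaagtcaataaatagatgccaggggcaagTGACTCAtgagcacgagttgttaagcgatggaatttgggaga
The *Mmp12* window holds CTTCCTC, the reverse complement of GAGGAAG, from base 164, and the *Gpnmb* window holds TGACTCA from base 259. TGACTCA is also found in the other *Mmp12* window, which is not shown.

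*Trem2*, a lipid-sensing receptor of macrophages, was at 1.49, 1.88 and 1.18 FPKM in the ND mice and 209, 163 and 167 FPKM in the HFD mice, a log2 fold change of 6.16. *Atp6v0d2*, a V-ATPase subunit of osteoclasts and macrophages, was at 0.688, 0.669 and 0.694 FPKM against 134, 94.3 and 111 FPKM (6.07, log2). *Tph2* encodes tryptophan hydroxylase of serotonin synthesis. It was at 0.265, 1.38 and 1.48 FPKM under ND and 73.97, 135 and 102 FPKM under HFD, a log2 fold change of 5.70 (SE 0.62, limma with Benjamini-Hochberg adjusted p = 2.1e-05). Its ND level was lowest in mouse 2. *Rgs1*, a regulator of G protein signaling in leukocytes, rose from 0.368, 0.254 and 0.371 FPKM to 62.9, 63.3 and 57.9 FPKM. *Gpr50*, an orphan receptor related to the melatonin receptors, was near 0 under ND, at 0.131, 0.108 and 0.0916 FPKM, and at 49.5, 35.9 and 55.6 FPKM under HFD. *Adam8*, *Itgax* and *Slc37a2* completed the 10 largest rises of the genes ranked, with log2 fold changes of 5.09, 4.76 and 4.74. *Itgax*, which encodes the integrin CD11c, was at 1.73, 2.04 and 2.57 FPKM under ND and 103, 71.98 and 76.5 FPKM under HFD. The groups did not overlap in any of the 10 genes, by the rule that chose them.

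**Figure D2:**
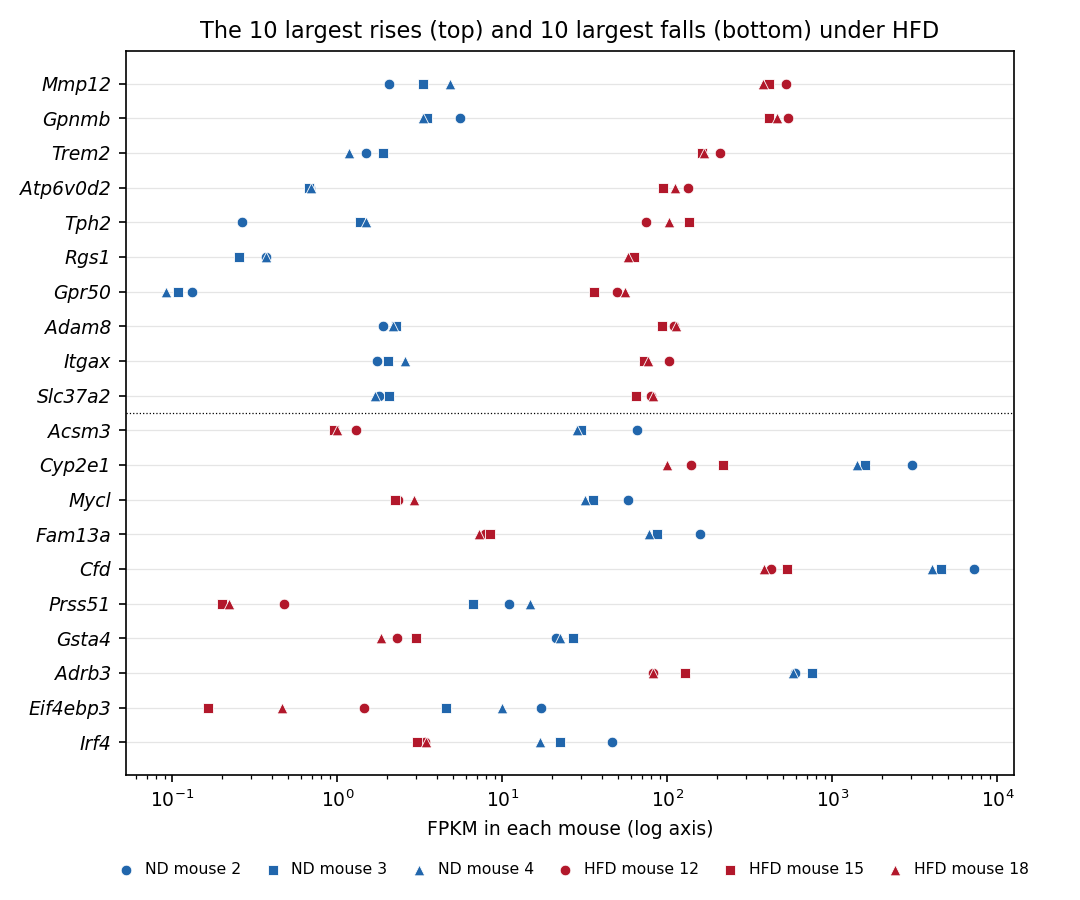
FPKM of each mouse on a log axis for the 10 largest rises and the 10 largest falls among called genes with a mean of 5 FPKM or more in the higher group, without overlap between diets, predicted genes and genes listed at 0 in 1 library beside 20 FPKM or more in another left out. Blue points are the 3 ND mice and red points the 3 HFD mice, with 1 symbol per mouse. The diets are apart in all 20 genes by the rule that chose them, *Eif4ebp3* and *Prss51* vary among the HFD mice, and ND mouse 2 is the highest ND mouse for *Acsm3*, *Cyp2e1*, *Mycl*, *Fam13a*, *Cfd*, *Eif4ebp3* and *Irf4*.

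Of the falls, that of *Acsm3* was the largest. This gene of medium-chain acyl-CoA synthesis (chromosome 7, 119760923 to 119787513) was at 65.2, 29.9 and 28.4 FPKM in the ND mice and 1.29, 0.954 and 0.9999 FPKM in the HFD mice, a log2 fold change of -4.24 (SE 0.46, limma with Benjamini-Hochberg adjusted p = 2.3e-05). *Cyp2e1*, a cytochrome P450 that oxidizes ethanol and acetone (chromosome 7, 140763739 to 140774987), was at 3047, 1581 and 1405 FPKM under ND and 139.9, 217 and 99.4 FPKM under HFD. ND mouse 2 was the highest for both, and without ND mice 3 and 4 and the other libraries with the letter R the log2 fold changes were -4.99 and -4.39. The start regions of both genes, chr7:119760673-119760972 and chr7:140763569-140763868 in GRCm38.p6 on the plus strand, are shown beside those of the raised genes and hold no match to the 3 motifs.
*Acsm3*: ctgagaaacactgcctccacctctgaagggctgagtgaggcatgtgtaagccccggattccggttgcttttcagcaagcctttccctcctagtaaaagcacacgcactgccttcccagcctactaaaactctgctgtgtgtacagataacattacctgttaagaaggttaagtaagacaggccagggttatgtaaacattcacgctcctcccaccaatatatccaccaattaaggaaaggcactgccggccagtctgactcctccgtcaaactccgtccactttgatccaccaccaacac
*Cyp2e1*: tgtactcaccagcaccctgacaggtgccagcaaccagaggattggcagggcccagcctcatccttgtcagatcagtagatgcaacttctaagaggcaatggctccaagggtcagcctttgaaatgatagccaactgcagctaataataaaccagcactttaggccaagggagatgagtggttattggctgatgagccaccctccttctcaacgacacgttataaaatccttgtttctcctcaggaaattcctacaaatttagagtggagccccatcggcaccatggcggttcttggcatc
Over all 12752 RefSeq windows of the tested genes (9932 genes matched by symbol), GAGGAAG was found in 13.7%, TCACGTG in 5.80% and TGACTCA in 3.83%. In the 1910 windows of genes called higher the shares were 18.1%, 5.97% and 5.24%, and in the 1278 windows of genes called lower 12.8%, 4.23% and 4.07%. These shares are a description of letters in the windows and were not tested.

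*Mycl*, a transcription factor of the MYC family, was at 57.8, 35.4 and 31.9 FPKM under ND and 2.33, 2.25 and 2.90 FPKM under HFD. *Fam13a*, a gene linked to fat distribution in humans, was at 157, 86.7 and 77.2 FPKM against 7.86, 8.45 and 7.25 FPKM, a log2 fold change of -3.54. *Irf4*, a transcription factor of adipocytes and lymphocytes, went from 46.1, 22.3 and 16.9 FPKM to 3.41, 3.03 and 3.47 FPKM. In these 3 genes ND mouse 2 was the highest and the HFD mice lay close together. *Prss51*, *Gsta4* and *Eif4ebp3* also belonged to the 10 largest falls, with log2 fold changes of -3.12, -2.86 and -2.69. *Gsta4* encodes the glutathione transferase that detoxifies lipid aldehydes and was at 21.2, 26.8 and 22.3 FPKM under ND and 2.31, 3.01 and 1.84 FPKM under HFD. *Cfd* and *Adrb3*, the other 2 genes of this group, are described with the adipocyte genes.

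The most abundant transcript under both diets was that of *Fabp4*, the fatty acid binding protein of adipocytes, at 19234, 19751 and 20210.2 FPKM in the ND mice and 10463, 11876 and 10657 FPKM in the HFD mice. Its fall of 0.85 on the log2 scale (Benjamini-Hochberg adjusted p = 3.7e-05, limma) was the largest drop in level, as its mean dropped by 8733 FPKM. *Car3*, a carbonic anhydrase of adipocytes, was second under ND with 10412 ± 287 FPKM (mean ± SD, n = 3) and had 3606 ± 304 FPKM under HFD. *Cfd* and *Apoe*, which came next under ND, also fell, though *Apoe* was not called without HFD mouse 18 (-0.58, log2). With *Scd1* left out, the second place under HFD was taken by *Hp*, the hemoglobin-binding acute phase protein haptoglobin, which rose from 888, 1379.8 and 1154 FPKM to 4129, 5350.1 and 5179 FPKM, the largest gain in FPKM of any tested gene that is not at 0 in a library beside 20 FPKM or more in another. *Sparc*, a collagen-binding matrix glycoprotein, followed *Lpl* under HFD with 3857 ± 75.4 FPKM, against 1784 ± 364 FPKM under ND. Large gains in FPKM were also seen for *Psap*, *Lyz2*, *Ctsd*, *Lep*, *Ftl1*, *Ctsb* and *Cd74*, and large losses for *Pck1*, *Cyp2e1*, *Gsn*, *Ces1d*, *Cidec* and *Trf*. *Lpl*, which encodes lipoprotein lipase, kept a high level under both diets, with 3799.9 ± 384 FPKM under ND and 3907 ± 121 FPKM under HFD, a log2 fold change of 0.04 (Benjamini-Hochberg adjusted p = 0.76, limma).

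Genes of 40 cell types and pathways were listed by symbol, with earlier results of these data known. For each list the number of tested members called in each direction is given beside the 14.9% and 10.8% of all genes.

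**Figure D3:**
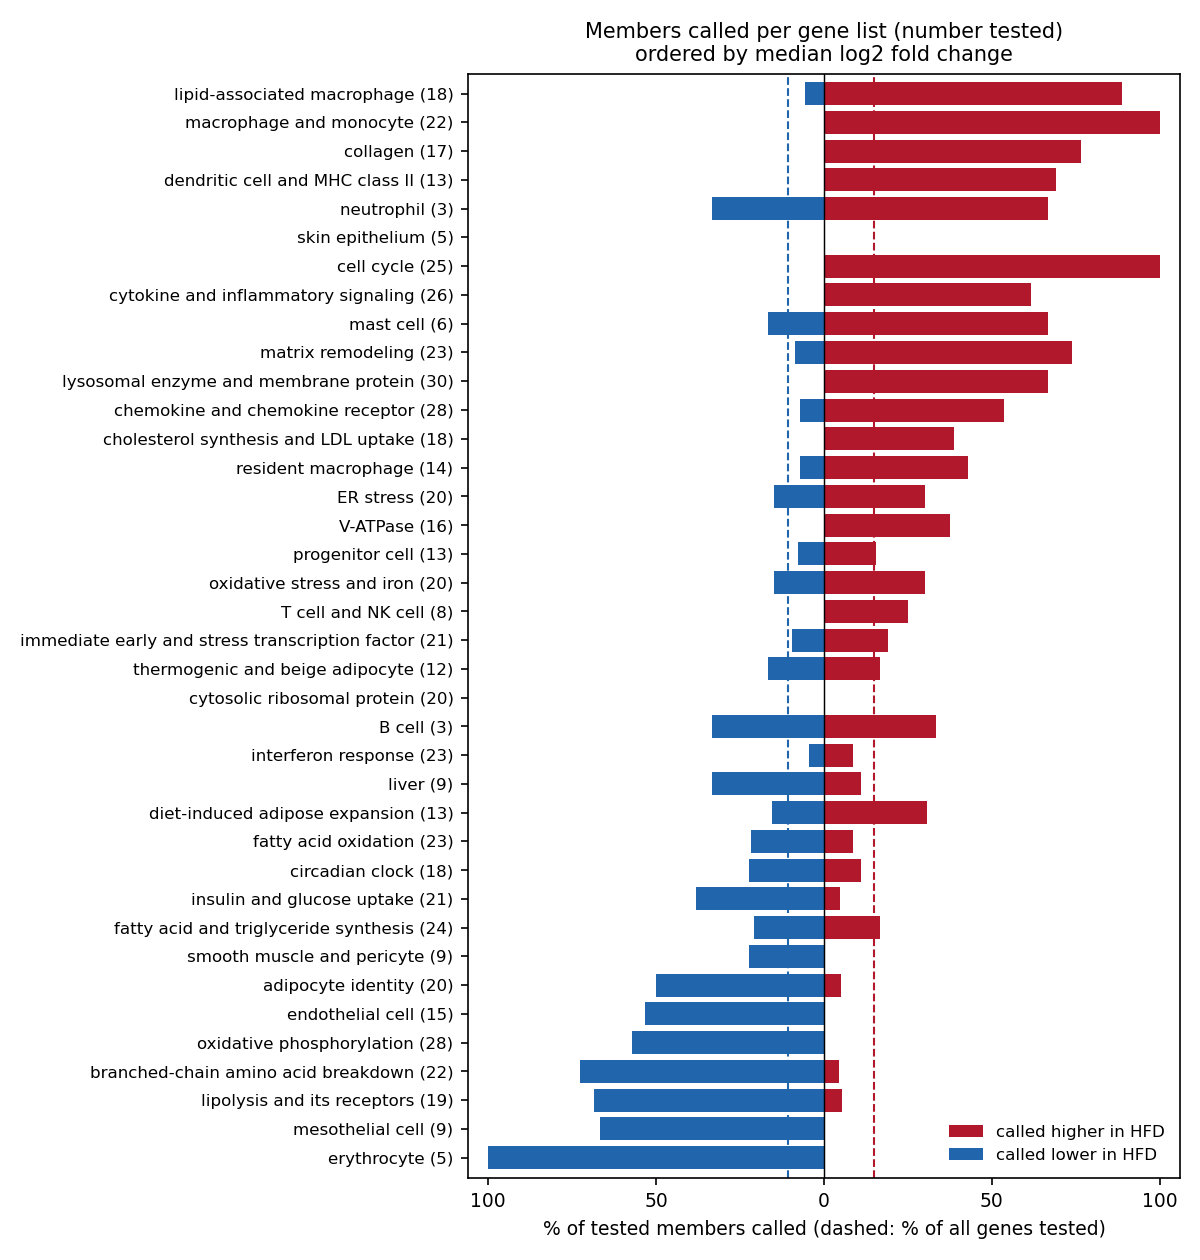
Share of the tested members of each gene list that was called higher (red, to the right) or lower (blue, to the left) in HFD, in %, for lists with 3 or more tested members, ordered by the median log2 fold change. The dashed lines are the 14.9% and 10.8% of all genes tested. The macrophage and cell cycle lists reach 100% higher, and the erythrocyte list 100% lower.

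All 22 macrophage and monocyte genes tested rose, with a median log2 fold change of 2.47. In a bulk tissue, more cells of a type and more of its RNA per cell cannot be told apart. The summed level of the list was 572, 813 and 581 FPKM in the ND mice and 4484, 4045 and 3955 FPKM in the HFD mice, which is 0.130% to 0.180% of all gene FPKM under ND and 0.900% to 1.02% under HFD. *Adgre1*, which encodes the macrophage marker F4/80, was at 7.80, 11.5 and 7.34 FPKM under ND and 164, 131 and 143 FPKM under HFD, a log2 fold change of 3.92 (SE 0.23, limma with Benjamini-Hochberg adjusted p = 6.6e-07). *Cd68*, a glycoprotein of phagocyte lysosomes, had the largest rise of the list at 4.08, from 14.9 ± 2.002 FPKM to 266 ± 25.6 FPKM (mean ± SD, n = 3). *Mpeg1*, *Itgam* and *Cybb*, which encode perforin-2, the integrin CD11b and a subunit of the phagocyte oxidase, rose by 3.87, 3.45 and 3.42. *Lyz2*, the lysozyme of myeloid cells, was the most abundant, at 227, 384 and 256 FPKM under ND and 1787, 1709 and 1506 FPKM under HFD. *Csf1r*, the receptor of the growth factor CSF1, rose by 2.39 and *Cx3cr1*, the fractalkine receptor of monocytes, by 1.41. The smallest rises were those of *Cd14* at 0.60 and *Csf2rb* at 0.63, and neither was called without the libraries with the letter R. *Cd14* was also not called without HFD mouse 12 (0.57), ND mouse 3 (0.57) or ND mouse 4 (0.49), nor *Csf2rb* without HFD mouse 18 (0.55) or ND mouse 3 (0.55).

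Macrophages that take up lipid express a program around *Trem2*. Of 18 such genes, 16 rose and 1 fell, with a median log2 fold change of 2.90. Besides the genes above, *Spp1*, the matrix protein osteopontin, went from 0.278, 0.251 and 1.04 FPKM to 34.3, 32.6 and 36.3 FPKM, a log2 fold change of 4.58. *Lgals3*, which encodes galectin-3, was at 39.6, 72.5 and 69.4 FPKM under ND and 723, 651 and 722 FPKM under HFD. *Ctsk* and *Lipa*, a cathepsin and the lysosomal acid lipase, rose by 3.45 and 3.04, and *Plin2*, which coats small lipid droplets, by 1.70. *Cd36*, a fatty acid transporter that adipocytes also express at a high level, was at 2096, 1956 and 1941 FPKM under ND and 2133, 2069 and 2162 FPKM under HFD and was not called. *Acp5*, the tartrate-resistant acid phosphatase, was the member that fell, from 191, 194 and 203 FPKM to 129, 118 and 118 FPKM.

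Lysosomal hydrolases and membrane proteins rose in 20 of 30 cases with none lower, and the median was 0.91. *Ctss*, a cathepsin of antigen-presenting cells, had the largest rise, from 25.5, 36.1 and 27.3 FPKM to 504, 417 and 387 FPKM (3.84, log2). *Gla*, *Gusb* and *Psap*, which encode a galactosidase, a glucuronidase and the precursor of the saposins, rose by 2.33, 2.18 and 1.69. *Psap* was the most abundant of the list, at 765, 832 and 866 FPKM under ND and 2753, 2501 and 2694 FPKM under HFD. *Lamp1*, a main glycoprotein of the lysosomal membrane, rose less, by 0.75, and *Smpd1*, *Mcoln1* and *Laptm4a* had log2 fold changes of 0.11, 0.11 and -0.17 without a call. For the V-ATPase, the proton pump of lysosomes, 6 of 16 subunits rose and none fell (median 0.37). The largest rises were those of *Atp6v1b2*, *Atp6v1a* and *Atp6v0a1* at 1.67, 1.56 and 1.49, and *Atp6v1g1* was at 0.04.

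Of 14 genes of resident and alternatively activated macrophages, 6 rose and 1 fell, with a median of 0.46. *Chil3*, *Folr2* and *Mrc1*, a chitinase-like lectin, a folate receptor and the mannose receptor CD206, rose by 1.86, 1.70 and 1.37, and *Arg1*, which encodes arginase, rose by 1.31 at a level of at most 2.69 FPKM. *Mrc1* was at 23.8, 25.4 and 17.1 FPKM under ND and 60.8, 55.4 and 58.05 FPKM under HFD. *Cd163* and *Lyve1*, a hemoglobin scavenger receptor and a hyaluronan receptor, had log2 fold changes of 0.24 and 0.01, and their groups overlapped. *Retnla*, the most abundant member, was at 448, 836 and 554 FPKM under ND and 375, 457 and 316 FPKM under HFD. Its fall of 0.64 (Benjamini-Hochberg adjusted p = 0.045, limma) was lost without HFD mouse 12 (-0.64), HFD mouse 18 (-0.51), ND mouse 3 (-0.40) or ND mouse 4 (-0.69).

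Among 13 genes of dendritic cells and MHC class II, 9 rose and none fell, with a median log2 fold change of 1.40. The class II genes *H2-Aa*, *H2-Ab1* and *H2-Eb1*, which present peptides to helper T cells, rose by 1.51, 1.40 and 1.46, their chaperone *Cd74* by 1.48 and their transcriptional activator *Ciita* by 1.89. *Cd74* was at 386, 428 and 327 FPKM under ND and 1124, 1059 and 991 FPKM under HFD. *H2-DMb1*, which helps to load peptides, had the largest rise at 2.55. Among markers of dendritic cells themselves, *Clec9a* rose by 0.62, a call lost without HFD mouse 15 (0.54), HFD mouse 18 (0.53) or ND mouse 2 (0.49). *Cd209a* had -0.26 and was not called, and *Zbtb46* had -0.58 (Benjamini-Hochberg adjusted p = 0.024, limma), under the fold change of 1.5. *Zbtb46* was called lower without HFD mouse 18 (-0.68) or ND mouse 3 (-0.74).

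Lymphocyte genes were near the filter. Of 20 T cell and NK cell genes 8 were tested and 2 rose, *Il7r*, the interleukin 7 receptor, and *Cd6*, at 0.62 and not called without ND mouse 4 (0.56). *Il7r* was at 1.11, 1.67 and 0.572 FPKM under ND and 33.7, 23.9 and 26.4 FPKM under HFD. *Cd3e* and *Cd3d*, which define T cells, did not pass the filter and were at 0.723 FPKM or less in each of the 6 mice, and *Cd3g* had a log2 fold change of 0.30. Of 9 B cell genes 3 were tested. *Jchain*, which joins secreted antibodies, fell by 2.17 from 11.2, 24.9 and 7.98 FPKM to 2.70, 3.02 and 1.10 FPKM, a call lost without ND mouse 3 (-1.73) or HFD mouse 18 (-1.88). *Cd22* rose by 1.44.

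Of 9 mast cell genes 6 were tested, 4 rose and 1 fell. The mast cell proteases *Mcpt4*, *Cpa3*, *Cma1* and *Tpsb2* rose by 1.04, 1.00, 0.97 and 0.95, and *Kit* fell by 0.86. *Tpsb2* was at 1.84, 1.47 and 1.22 FPKM under ND and 5.25, 4.12 and 2.53 FPKM under HFD. *Fcer1a*, *Ms4a2* and *Tpsab1* did not pass the filter, at 0.373 FPKM or less, and overlapped between the diets. *Kit* encodes the receptor of stem cell factor and was at 10.2, 4.88 and 5.90 FPKM under ND and 3.04, 2.40 and 4.50 FPKM under HFD. Without the libraries with the letter R only 2 of these 4 rises, those of *Mcpt4* and *Cpa3*, were called, and *Tpsb2* was not called without HFD mouse 12 (0.77). The 2 subunits of calprotectin, which neutrophils hold in large amounts, went apart. *S100a8* was at 4.84, 11.5 and 14.1 FPKM under ND and 69.7, 115 and 118 FPKM under HFD and rose by 3.26. *S100a9* was at 1.27, 2.31 and 0.678 FPKM under ND and 0, 0.471 and 0.671 FPKM under HFD, and its fall by 0.79 was not called without HFD mouse 12 (-0.57), ND mouse 2 (-0.80) or ND mouse 3 (-0.53). The 0 listed for HFD mouse 12 can be a failed estimate. *Csf3r*, which encodes the receptor of granulocyte colony-stimulating factor, rose by 1.32. *Elane*, also on the neutrophil list, did not pass the filter. Its level was 1.23, 1.21 and 0.882 FPKM under ND and 0.178, 0.329 and 0.529 FPKM under HFD. *Ly6g*, which defines neutrophils, was at 0 in all 6 mice.

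**Figure D4:**
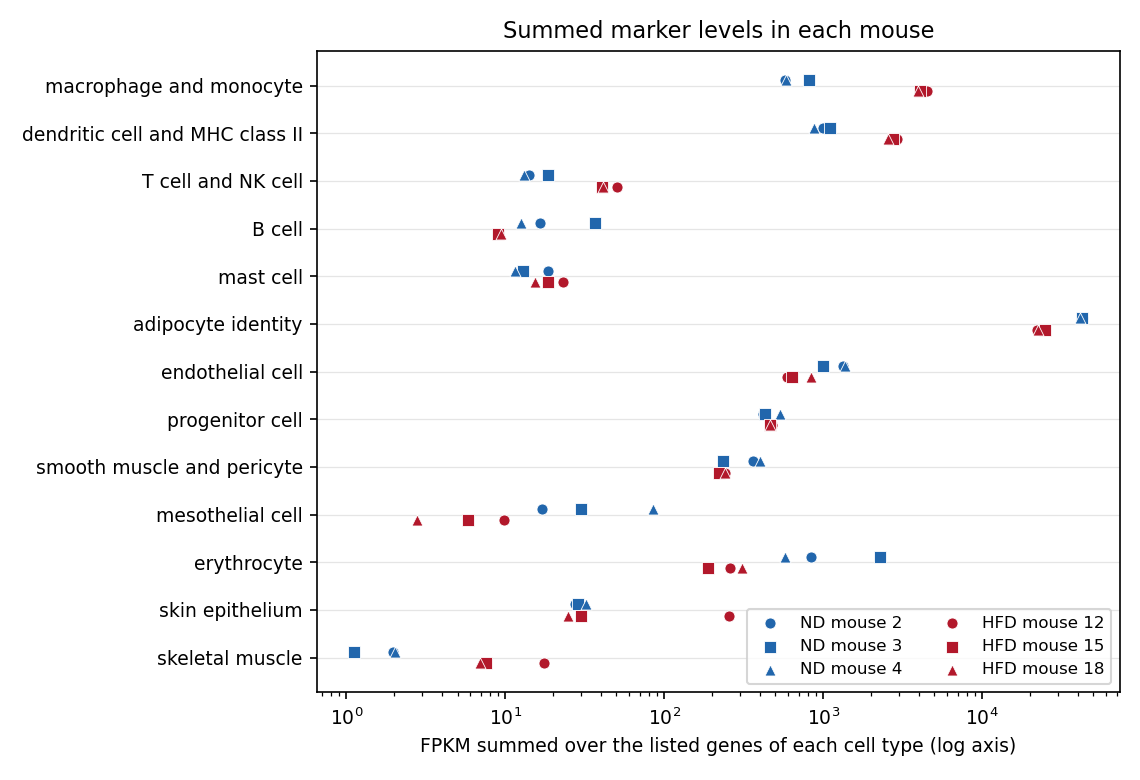
FPKM summed over the listed genes of each cell type in each mouse, on a log axis, with ND mice in blue, HFD mice in red and 1 symbol per mouse. Macrophage sums are higher in every HFD mouse, from 3955 to 4484 FPKM against 572 to 813. The T cell and NK cell sum of each HFD mouse is mostly *Il7r*. The endothelial sum includes *Vegfa*, which is not a marker of endothelial cells. HFD mouse 12 stands alone for skin genes at 254 FPKM, ND mouse 4 is highest for mesothelial genes at 84.3 FPKM and ND mouse 3 for erythrocyte genes at 2291 FPKM.

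Chemokines and their receptors, which direct leukocytes, rose in 15 of 28 cases and fell in 2 (median 0.90). *Ccl9* and *Ccl2* rose by 2.75 and 2.31. *Ccl2*, the ligand that attracts monocytes, was at 2.99, 4.42 and 7.65 FPKM under ND and 33.4, 24.9 and 24.4 FPKM under HFD. *Ccl6* was the most abundant, at 46.4, 58.1 and 42.9 FPKM under ND and 159.9, 172 and 144 FPKM under HFD. *Cxcl9*, an interferon-gamma target, fell from 25.6, 22.5 and 26.5 FPKM to 16.7, 15.9 and 11.4 FPKM, and *Cxcl13* fell by 1.09. Neither fall was called without HFD mouse 18 (-0.58 and -1.05) or the libraries with the letter R, and that of *Cxcl13* was lost without HFD mouse 12 (-0.99) or ND mouse 3 (-0.61). *Cxcl12*, the main ligand of stromal cells, had -0.10 and was not called.

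For cytokines and inflammatory signaling 16 of 26 genes rose and none fell, with a median of 1.05. *Saa3*, an acute phase protein of adipose tissue, was at 0.477, 6.68 and 5.17 FPKM under ND and 72.9, 118 and 115 FPKM under HFD, with the lowest level in ND mouse 2. *Il1rn*, which encodes the interleukin 1 receptor antagonist, went from 0.248, 0.963 and 0.183 FPKM to 21.5, 25.5 and 28.1 FPKM, a log2 fold change of 4.18 (SE 0.39, limma with Benjamini-Hochberg adjusted p = 7.8e-06). Its agonists *Il1b* and *Il1a* and the cytokine *Il6* did not pass the filter. *Il1b* was at 0.673, 1.35 and 0.317 FPKM under ND and at 0.429, 0.192 and 0.577 FPKM under HFD, with overlapping groups. *Tnf* rose by 0.83, from 0.318, 0.223 and 0.392 FPKM to 1.22, 1.19 and 1.59 FPKM. The Toll-like receptors *Tlr13*, *Tlr8*, *Tlr1* and *Tlr7* rose by 3.85, 3.45, 2.62 and 2.08, whereas *Tlr4*, the lipopolysaccharide receptor, had 0.48 and passed the adjusted p but not the fold change. Of the NF-kB subunits, *Nfkb2* rose by 0.59, a call lost without HFD mouse 18 (0.57) or ND mouse 2 (0.52), while *Nfkb1*, *Rela* and *Relb* had 0.24, 0.02 and 0.02 and were not called. *Nfkbia*, which encodes their inhibitor, had -0.39 and was called lower without the libraries with the letter R (-0.76). Interferon response genes were called in 3 of 23 cases. *Oas1a* and *Mx1* rose by 1.33 and 0.77 and *Isg15* fell by 0.78, a call that was lost without HFD mouse 12 (-0.66), HFD mouse 18 (-0.76) or ND mouse 4 (-0.55). Without ND mouse 2, 2 of the 23 were called lower, and without any of those 3 mice, left out one at a time, none was. *Ifi27l2a*, the most abundant, was at 577, 609 and 563 FPKM under ND and 1356, 573 and 1265 FPKM under HFD and was not called, and HFD mouse 15 lay within the range of the ND mice.

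Of 20 genes of adipocyte identity, 10 fell and 1 rose, with a median log2 fold change of -0.58. Their summed level was 41369 to 43245 FPKM in the ND mice and 22205 to 24768 FPKM in the HFD mice, from 9.27% to 9.85% of all gene FPKM under ND and from 5.04% to 5.51% under HFD. The riser was *Lep*, which encodes leptin and was at 194, 248 and 302 FPKM under ND and 1172, 1271 and 1291 FPKM under HFD, a log2 fold change of 2.34 (SE 0.23, limma with Benjamini-Hochberg adjusted p = 9.7e-06). *Cfd*, the serine protease adipsin of the alternative complement pathway, was at 7206, 4560.3 and 3999 FPKM under ND and 425, 532 and 383 FPKM under HFD. This fall of 3.52 (SE 0.23, Benjamini-Hochberg adjusted p = 7.5e-07, limma) was the largest of the list. *Pck1*, the key enzyme of glyceroneogenesis, and *Retn*, which encodes resistin, each fell by 2.36, *Pck1* from 2328 ± 213 FPKM to 451 ± 27.8 FPKM (mean ± SD, n = 3). *Adipoq*, which encodes adiponectin, was at 1866, 2292 and 2249.8 FPKM under ND and 1231, 1220.4 and 1107 FPKM under HFD. The lipid droplet proteins *Plin1*, *Plin4* and *Cidec* fell by 0.83, 1.23 and 0.69. The master regulator *Pparg* had -0.44 and *Cebpa* -0.48, with adjusted p = 0.016 and 0.0081 (limma, Benjamini-Hochberg) but below the fold change of 1.5. *Pparg* was called lower without ND mouse 4 (-0.60). *Sncg*, *Mrap* and *Lpl* had log2 fold changes of 0.08, 0.08 and 0.04.

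Lipolysis genes and the receptors that control it fell in 13 of 19 cases and rose in 1 (median -0.78). *Adrb3*, a beta adrenergic receptor that stimulates lipolysis in adipocytes, was at 593, 749 and 581 FPKM under ND and 82.4, 127 and 82.3 FPKM under HFD, a log2 fold change of -2.73 (SE 0.29, limma with Benjamini-Hochberg adjusted p = 1.8e-05). *Adrb1* fell by 1.40 from a lower level, at 3.84, 8.14 and 2.53 FPKM under ND and 0.775, 1.16 and 1.21 FPKM under HFD, and was not called without HFD mouse 12 (-1.30) or ND mouse 3 (-1.02). Of the enzymes, *Pnpla2*, which encodes adipose triglyceride lipase, went from 1763, 1230.0 and 1364 FPKM to 809, 771 and 704 FPKM, and *Lipe*, the hormone-sensitive lipase, fell by 0.62. *Mgll*, which cleaves the last fatty acid, had -0.08 and was not called. Genes that restrain lipolysis fell too, among them the phosphodiesterase *Pde3b* by 1.30, the nicotinic acid receptor *Hcar2* by 1.59 and the inhibitor of the triglyceride lipase *G0s2* by 0.73. The fatty acid receptor *Ffar4* fell by 1.85. *Adora1*, an inhibitory adenosine receptor, was the member that rose, at 23.6, 26.6 and 21.01 FPKM under ND and 32.03, 41.6 and 38.5 FPKM under HFD, and it was not called without HFD mouse 15 (0.55) or ND mouse 4 (0.55).

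**Figure D5:**
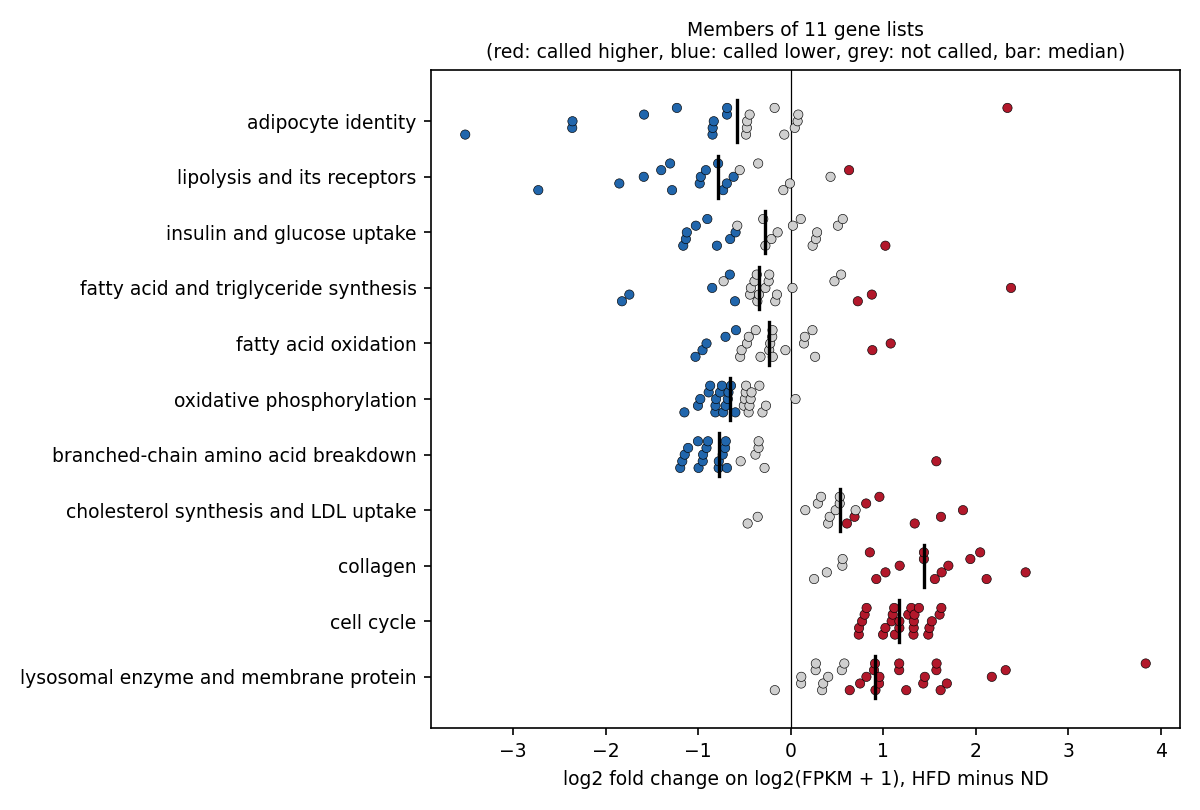
Log2 fold change of HFD against ND on the log2(FPKM + 1) scale for each tested member of 11 gene lists, 1 point per gene, with called genes in red (higher) or blue (lower), genes not called in grey and the list median as a black bar. *Scd1* is not drawn. Members of oxidative phosphorylation and of branched-chain amino acid breakdown lie left of 0 apart from *Cycs* and *Bcat1*, and all cell cycle and collagen members lie right of it.

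In fatty acid and triglyceride synthesis the calls went both ways. Without *Scd1*, 3 of 23 genes rose, 5 fell and the median was -0.34. Of the enzymes that make malonyl-CoA, *Acaca* was at 141, 214 and 126 FPKM under ND and 43.1, 50.5 and 44.4 FPKM under HFD, and *Acacb* fell by 1.82. *Fasn*, which encodes fatty acid synthase, was at 376, 913 and 529 FPKM under ND and 299, 445 and 301 FPKM under HFD, a log2 fold change of -0.73 that did not pass (Benjamini-Hochberg adjusted p = 0.054, limma) but was called lower without HFD mouse 15 (-0.91) or ND mouse 2 (-1.02). ND mouse 3 was the highest ND mouse for *Fasn*, *Acly*, *Acss2*, *Elovl6* and *Pnpla3*, all of them overlapping between diets. *Scd2*, a desaturase, rose from 11.9, 68.4 and 31.8 FPKM to 126, 214 and 152 FPKM. *Gpd1* and *Dgat2*, which supply glycerol 3-phosphate and finish triglycerides, rose by 0.88 and 0.73, while *Dgat1* fell by 0.66. These 3 calls were lost without single mice. *Gpd1* (0.71) and *Dgat2* (0.46) were not called without ND mouse 2, *Dgat2* without HFD mouse 15 (0.57) or HFD mouse 18 (0.70), and *Dgat1* without HFD mouse 12 (-0.49). The counts, *Scd1* included, moved with single mice, to 2 of 24 higher without ND mouse 2 and 3 of 24 lower without HFD mouse 12.

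Genes of cholesterol synthesis and LDL uptake rose in 7 of 18 cases and none fell (median 0.53). *Dhcr7*, the last enzyme of the pathway, was at 3.63, 4.95 and 5.25 FPKM under ND and 15.6, 21.6 and 21.1 FPKM under HFD. *Srebf2*, the transcription factor of the pathway, rose by 0.69, and had 0.51 without the libraries with the letter R. *Hmgcs1*, the most abundant member, had -0.36 and was not called.

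Of 21 genes of insulin signaling and glucose uptake, 8 fell and 1 rose (median -0.27). *Irs1*, an adaptor of the insulin receptor, was at 8.53, 7.77 and 7.02 FPKM under ND and 2.91, 2.93 and 2.90 FPKM under HFD. The receptor *Insr* was at 55.1, 45.7 and 42.8 FPKM under ND and 22.3, 23.3 and 23.05 FPKM under HFD, a log2 fold change of -1.03 (SE 0.11, limma with Benjamini-Hochberg adjusted p = 2.6e-05), and the HFD mice were nearly equal for both genes. The kinase *Akt2* fell by 0.90, the kinase subunit *Pik3cb* by 1.13, and the pseudokinase *Trib3*, an inhibitor of AKT, by 1.12. *Ptpn1*, the phosphatase that acts on the insulin receptor, was the member that rose, from 17.1 ± 2.01 FPKM to 35.7 ± 1.19 FPKM (mean ± SD, n = 3), with no overlap. *Slc2a4*, which encodes the glucose transporter GLUT4, was at 42.3, 64.4 and 49.1 FPKM under ND and 39.96, 45.8 and 38.9 FPKM under HFD, and its log2 fold change of -0.30 was not called. The fall of *Irs2* by 0.80 turned to 0.78 without a call when only known Ensembl transcripts were summed. Without ND mouse 2, 3 of the 21 were called higher, and without HFD mouse 12 or HFD mouse 15, 2.

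For oxidative phosphorylation 16 of 28 subunits fell and none rose, with a median log2 fold change of -0.66, and 27 of 28 had all HFD mice below all ND mice, against 29.3% of all genes. *Ndufa5* and *Ndufb8* of complex I fell by 1.15 and 1.00, *Atp5c1* of the ATP synthase by 0.98 and *Cox6c* of complex IV by 0.89. *Atp5b*, the most abundant, was at 1710.0, 1653 and 1407 FPKM under ND and 901, 947 and 869 FPKM under HFD. *Cycs*, which encodes cytochrome c, was at 0.05 on the log2 scale. Without ND mouse 3, 12 of the 28 were called.

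Enzymes of branched-chain amino acid breakdown fell in 16 of 22 cases, with a median of -0.78. *Bckdhb*, a subunit of the dehydrogenase that commits these amino acids to breakdown, was at 129, 126 and 121 FPKM under ND and 54.1, 57.04 and 51.6 FPKM under HFD, a log2 fold change of -1.19 (SE 0.07, limma with Benjamini-Hochberg adjusted p = 7.1e-07). *Mccc1*, *Ivd* and *Aldh6a1*, further down the pathway, fell by 1.17, 1.15 and 1.11. *Aldh6a1* was the most abundant, at 332, 253 and 233 FPKM under ND and 129, 128 and 116 FPKM under HFD. *Bcat1*, the cytosolic transaminase, was the 1 member that rose, from 1.05, 2.28 and 3.53 FPKM to 8.64, 9.89 and 6.71 FPKM, while the mitochondrial *Bcat2* fell by 0.74. Without the libraries with the letter R the log2 fold change of *Bcat2* was -0.55.

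Of 23 genes of fatty acid oxidation, 5 fell and 2 rose, with a median of -0.23. *Echs1*, *Ehhadh*, *Eci1* and *Hadh*, enzymes of the beta-oxidation spiral, fell by 1.03, 0.95, 0.91 and 0.70. The fifth, *Acadvl*, which starts the spiral for very long chains, fell by 0.59 and was not called without HFD mouse 18 (-0.53), ND mouse 2 (-0.54) or ND mouse 3 (-0.58). *Cpt1a*, the gate for fatty acids into mitochondria, was at 35.7, 38.2 and 46.4 FPKM under ND and 76.4, 70.6 and 76.2 FPKM under HFD and rose by 0.88, as did *Cpt1b* at a lower level (1.08, not called without the libraries with the letter R).

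Thermogenic and beige adipocyte genes were at low levels, and *Ucp1*, which uncouples respiration in brown fat, did not pass the filter at 0.460 FPKM or less. Of 12 genes tested, 2 rose and 2 fell, with a median of 0.02 whose sign turned under quantile normalization (-0.05), without the libraries with the letter R (-0.20) and without single ND mice. *Cidea* fell from 5.94, 3.99 and 3.25 FPKM to 1.66, 0.981 and 0.770 FPKM and *Ebf2*, a regulator of brown fat identity, by 0.84. The risers were the creatine transporter *Slc6a8* at 1.24 and the glycerol kinase *Gk* at 0.81 (0.74 without the libraries with the letter R). *Pdk4*, the most abundant, *Ppargc1a* and *Prdm16* had 0.28, -0.42 and 0.04 and were not called.

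Among 13 tested genes linked to adipose expansion, 4 rose and 2 fell. Apart from *Tph2*, *Sfrp5*, a secreted Wnt antagonist, was at 59.04, 46.6 and 137 FPKM under ND and 285, 235 and 235 FPKM under HFD, and *Bmp3*, a bone morphogenetic protein, rose by 0.99. The imprinted genes went different ways. *Peg3* fell from 206, 129 and 178 FPKM to 81.6, 71.6 and 74.3 FPKM and *Igf2* by 1.10, whereas *Mest*, at 417, 607 and 681 FPKM under ND and 671, 681 and 712 FPKM under HFD, was not called. *Cav1*, the structural protein of caveolae, had -0.02.

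Of 17 collagens 13 rose and none fell, with a median log2 fold change of 1.44, and all 17 were called higher without the libraries with the letter R. *Col3a1* was the most abundant, at 148, 233 and 230.2 FPKM under ND and 697, 789 and 832 FPKM under HFD, and *Col1a1* went from 37.1, 39.4 and 51.7 FPKM to 173, 181 and 209.5 FPKM, a log2 fold change of 2.12 (SE 0.17, limma with Benjamini-Hochberg adjusted p = 2.2e-06). These encode chains of the fibrillar collagens III and I. *Col16a1* had the largest rise at 2.54, and the chains of collagen VI, which surrounds adipocytes, rose by 1.71 (*Col6a2*), 1.63 (*Col6a1*) and 1.56 (*Col6a3*). *Col5a3*, *Col15a1* and *Col18a1* had 0.25, 0.56 and 0.39 and were not called. ND mouse 2 was the lowest ND mouse for *Col1a1*, *Col3a1* and *Col6a1*.

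Among 23 genes of matrix remodeling, 17 rose and 2 fell (median 0.96). *Timp1*, an inhibitor of matrix metalloproteinases, was at 0.487, 1.68 and 1.37 FPKM under ND and 15.4, 15.98 and 13.5 FPKM under HFD. The metalloproteinases *Mmp19*, *Mmp3*, *Mmp2* and *Mmp14* rose by 1.69, 1.64, 1.61 and 0.96, and *Mmp9*, a gelatinase, fell from 2.79, 3.94 and 2.64 FPKM to 0.556, 0.804 and 0.538 FPKM. *Fn1*, *Lum* and *Bgn*, which encode fibronectin and the proteoglycans lumican and biglycan, rose by 1.53, 1.97 and 1.40. *Timp3* fell by 0.82, a call lost without HFD mouse 15 (-0.68) or ND mouse 2 (-0.58), and *Dcn* and *Lox* had -0.31 and 0.15 and were not called.

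Progenitor cells give rise to adipocytes and share the stroma with vessels. Of 13 progenitor cell genes, 2 rose and 1 fell. *Sema3c*, a semaphorin, rose from 18.1 ± 3.51 FPKM to 45.6 ± 1.14 FPKM (mean ± SD, n = 3), while *Pdgfra* and *Pi16*, which define these cells, had 0.35 and 0.31 and were not called. *Dpp4*, also a defining marker, had 0.57 and was not called, but it was called higher without ND mouse 4 (0.79). Without the libraries with the letter R *Dpp4* had 1.13. The call of *Pdgfrb*, at 0.62, was lost without HFD mouse 18 (0.46) or ND mouse 3 (0.41), and that of *Ly6a*, which encodes the antigen Sca-1 and fell by 0.59, without HFD mouse 18 (-0.50) or ND mouse 4 (-0.49). Endothelial genes fell in 8 of 15 cases, with a median of -0.62. The largest falls were those of *Gpihbp1*, which holds lipoprotein lipase on capillaries, *Cldn5*, a tight junction protein, and *Vegfa*, at 1.15, 1.14 and 1.11. *Vegfa*, which is part of this list and its count, is a growth factor that adipocytes secrete and not a marker of endothelial cells. It was at 249, 274 and 275 FPKM under ND and 115, 124 and 130.4 FPKM under HFD. The defining markers *Pecam1* and *Kdr* had -0.32 and -0.56 and overlapped between the diets, with HFD mouse 18 the highest HFD mouse and ND mouse 3 the lowest ND mouse. *Kdr* was called lower without HFD mouse 18 (-0.83) or ND mouse 3 (-0.79). Without HFD mouse 12 or ND mouse 4, 5 of the 15 were called, and without HFD mouse 18 or ND mouse 3, 12. In smooth muscle and pericyte genes *Tagln* and *Lmod1* fell, by 0.91 and 0.61, and the count went from 0 without HFD mouse 12, HFD mouse 15 or ND mouse 2 and 1 without ND mouse 4 to 6 of 9 without ND mouse 3.

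Mesothelial genes, from the lining of the fat pad, fell in 6 of 9 cases and varied among the ND mice. *Upk3b* was at 1.47, 8.80 and 25.6 FPKM under ND and 2.06, 0.488 and 0.0549 FPKM under HFD, and *Msln* at 0.449, 2.43 and 9.40 FPKM and 0.678, 0.155 and 0 FPKM. ND mouse 4 was the highest and ND mouse 2 lay near HFD mouse 12. Without the libraries with the letter R, 1 of the 9, *Lrrn4*, was called. *Upk3b* and *Msln* were not called without ND mouse 4 (-1.55 and -0.84), HFD mouse 15 (-2.27 and -1.52) or HFD mouse 18 (-2.02 and -1.42), nor *Upk3b* without ND mouse 3 (-2.27). Without ND mouse 4 the count was 4 and the median went from -1.48 to -0.84.

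All 25 cell cycle genes tested rose, with a median log2 fold change of 1.18. *Mki67*, the proliferation marker, was at 0.769, 1.12 and 1.61 FPKM under ND and 4.80, 5.88 and 6.29 FPKM under HFD, a log2 fold change of 1.63 (SE 0.15, limma with Benjamini-Hochberg adjusted p = 7.1e-06). *Mcm5*, *Top2a* and *Ccnb1*, which act in replication and mitosis, rose by 1.61, 1.53 and 1.50. *Pcna*, the sliding clamp of DNA polymerase, was the most abundant, at 27.1, 30.6 and 30.9 FPKM under ND and 68.6, 67.05 and 67.8 FPKM under HFD. Apart from *Pcna*, no member exceeded 15.2 FPKM in any mouse, and HFD mouse 12 was the lowest HFD mouse for *Mki67*, *Mcm5*, *Top2a* and *Ccnb1*.

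Endoplasmic reticulum stress genes went both ways, with 6 of 20 higher and 3 lower. The chaperones *Sdf2l1*, *Calr* and *Hspa5* rose by 1.68, 0.97 and 0.89, *Hspa5* from 132, 124 and 129 FPKM to 249, 256 and 215 FPKM. Genes of the integrated stress response went both ways too. *Asns*, the asparagine synthetase, fell by 1.53 and *Chac1* by 1.39, whereas *Ddit3* rose by 0.64. Their regulator *Atf4* had -0.08 without a call. *Xbp1*, a regulator of secretory capacity, fell from 129, 155 and 122 FPKM to 88.2, 82.9 and 77.5 FPKM.

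Among 20 genes of oxidative stress and iron handling, 6 rose and 3 fell. *Hmox1*, which breaks down heme, was at 13.3, 12.7 and 13.3 FPKM under ND and 65.8, 55.2 and 53.8 FPKM under HFD, and *Slc11a1*, an iron transporter of phagosomes, rose by 2.76. Of the ferritin chains, *Ftl1* went from 647, 650.4 and 641 FPKM to 1580.0, 1461 and 1445 FPKM, and *Fth1* had 0.14 without a call. *Cp* and *Trf*, which encode the copper-containing ferroxidase ceruloplasmin and the iron carrier transferrin, fell by 1.48 and 0.88, and the metalloreductase *Steap2* by 1.25.

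Circadian clock genes showed 2 rises and 4 falls among 18. *Per3*, a member of the period family of repressors, was at 19.2, 14.8 and 12.8 FPKM under ND and 7.31, 7.43 and 9.17 FPKM under HFD, a log2 fold change of -0.88 (SE 0.16, limma with Benjamini-Hochberg adjusted p = 0.001). *Bhlhe40* rose by 1.23, and *Clock* and *Arntl*, the activators of the clock, had -0.07 and -0.24. *Bhlhe41*, a repressor of the clock like *Bhlhe40*, rose by 0.75 (0.47 without the libraries with the letter R). The repressors *Nr1d1* and *Per2* fell by 0.64 and 0.59. *Nr1d1* was not called without HFD mouse 15 (-0.45), HFD mouse 18 (-0.71), ND mouse 2 (-0.63) or ND mouse 3 (-0.53), and *Per2* without HFD mouse 18 (-0.55), ND mouse 2 (-0.38) or ND mouse 3 (-0.57). The hour of collection is not given in the sources used here. Without HFD mouse 18 or ND mouse 2, 2 of the 18 were called lower.

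Immediate early and stress transcription factors were called in 6 of 21 cases. *Atf3*, which stress induces, was at 3.25, 2.53 and 2.42 FPKM under ND and 80.1, 64.5 and 68.5 FPKM under HFD (4.27, log2), and *Egr2*, *Fos* and *Egr3* rose by 3.43, 2.07 and 0.67, with *Egr3* not called without ND mouse 3 (0.57). *Jun* and *Egr1* had -0.32 and 0.54 and were not called. *Klf4* and *Ier3* fell by 0.80 and 1.03, and *Klf4* was not called without ND mouse 2 (-0.55).

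Of 20 cytosolic ribosomal protein genes 0 were called, with a median log2 fold change of -0.03 and 1 gene, *Rps19*, at an adjusted p of 0.0065 (limma, Benjamini-Hochberg) and -0.57. Under quantile normalization 1 was called, and *Rps19* was called lower without HFD mouse 15 (-0.66), ND mouse 2 (-0.61) or ND mouse 4 (-0.63).

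Genes of other tissues differed between mice. The 5 erythrocyte genes tested all fell. *Hbb-bs*, a beta globin, was at 403, 1242 and 279.8 FPKM under ND and 132, 105 and 156 FPKM under HFD, with ND mouse 3 the highest, and the 5 calls stood without that mouse, but with the letter R as a covariate 2 of the 5 were called and the median was -1.41. The globin genes are near-identical copies, so their values are uncertain one by one. Of 9 liver genes 3 fell and 1, *Hp*, rose. *Alb*, which encodes albumin, was at 19.8, 12.2 and 12.2 FPKM under ND and 4.71, 2.13 and 0.973 FPKM under HFD, and the antitrypsin genes *Serpina1a* and *Serpina1c*, near-identical copies, fell by 1.19 and 1.03, while *Apoa2* was at 8.38, 0.972 and 0.211 FPKM and 4.56, 0.841 and 0.497 FPKM, highest in ND mouse 2 and HFD mouse 12 and not called. The skin gene *Krtdap* was at 2.12, 0 and 1.45 FPKM under ND and 97.5, 1.86 and 0 FPKM under HFD, and 0 of 5 skin genes were called, with 0 at an adjusted p under 0.05 in limma. Of the skeletal muscle genes *Ckm* was at 1.43 FPKM in HFD mouse 12 and at 0.0332 FPKM or less in the others, and *Pvalb*, a calcium-binding protein and the 1 gene of the list that was tested, rose, from at most 0.193 FPKM under ND to 6.82, 6.44 and 5.79 FPKM under HFD. *Crisp1*, the 1 epididymis gene tested, was at 1.16, 0.388 and 5.13 FPKM under ND and 0.0487, 0.349 and 0.129 FPKM under HFD and was not called. It was called lower without ND mouse 3 (-1.64), and without the libraries with the letter R its log2 fold change was -0.89. The part of these cells in the results above was not tested. Without HFD mouse 12, 3006 of the 3273 calls stood in the same direction.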

How the data were processed

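RNA from eWAT of 12 mice in 4 groups of 3 was sequenced as TruSeq mRNA libraries, and the 3 HFD and 3 ND libraries are compared here. Per the labels' processing notes, the tools were CASAVA 1.8.2, Bowtie2 2.2.3, TopHat2 2.0.12 and Cufflinks 2.2.1. The authors deposited FPKM per transcript, the fragments scaled to transcript length and library by Cuffdiff. The genome build is not given in the sources used here. Columns with the authors' calls of differential expression and 3 FPKM columns of no sample were not used. The DEGseq test with edgeR normalization named in the methods was not repeated, since it needs counts. Without counts the depth is unknown.

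Of 152210 transcript rows, 140416 were summed into 22947 genes, which are known Ensembl transcripts plus assembled isoforms that match or share a junction with one. The rows left out held most of the FPKM of every library. Gene positions come from GENCODE M21 (GRCm38). Genes at 1 FPKM in 3 libraries or more were tested with limma 3.58.1 (R 4.3.3) after log2(FPKM + 1), in a model of all 12 libraries with a coefficient per group. Adjusted p-values are Benjamini-Hochberg over 12775 genes, called genes also pass a fold change of 1.5, and the pseudocount understates changes of low genes. The pooled spread includes the 6 libraries of the other groups. The number in each title is taken as a mouse, and no source used here says that samples were pooled. The methods call the 3 samples per group representative, and how they were picked is not given. The spread among them may therefore differ from that of the whole group. The fit was run on simulated data with independent normal noise, 200 of 12775 genes changed and no effect of the letter R. It recovered 185 of the 200 at a log2 change of 1, with 6 false calls, and 195 at 2, with 4. In the real data 25.6% of the genes were called, so this run does not vouch for the calls above.

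The members and the 40 gene lists (729 symbols, 641 tested) were chosen with earlier results of these data known. The genes named are the 10 largest rises and the 10 largest falls with 5 FPKM or more in the higher group and no overlap (predicted genes and genes at 0 in 1 library beside 20 FPKM or more in another left out), and of each list the 4 called members with the largest changes, the most abundant member and the defining members. The most abundant genes overall and other members named were picked after their values were seen. Some genes that this rule selects are not reported here. Alternatives covered filter, pseudocount, scaling, transcript sum, samples and left-out libraries. Start regions are RefSeq windows (GRCm38.p6) matched by symbol.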

Additional observations from a re-analysis of the deposited data

How the results depend on the processing

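No paired analysis was possible because the ND mice (2, 3 and 4) and the HFD mice (12, 15 and 18) share no number. The 1899 rises became 1265 with a filter on a mean of 5 FPKM, which tests fewer genes, 3278 with the adjusted p alone and 991 with a fold change over 2. The 1374 falls became 3167 with the adjusted p alone and 411 with a fold change over 2. Leaving out 1 mouse at a time gave 1831 to 1954 rises and 1269 to 1493 falls, and 2573 of the 3273 calls (78.6%) were made in all 6 such fits. Quantile normalization gave 1667 rises and 1708 falls, so that falls were then more frequent, and a pseudocount of 0.1 FPKM gave 2103 and 1702. Without the libraries with the letter R, which left 1 ND mouse assumed to vary like the other groups, 2811 of the 3273 calls stood and 0 turned, and with the letter as a covariate 2991 stood. Of 253 named genes, 199 kept their call in every setting in which they were tested, and the filter on a mean of 5 FPKM and the known transcripts tested fewer of them. When only known Ensembl transcripts were summed, a setting chosen after seeing the data, *Irs2* had 0.7812, against -0.80 with assembled isoforms, whose removal is how the setting is built. The median of 8 of 40 lists changed sign in some setting, among them mast cells at -0.86 with the filter on a mean of 5 FPKM, which left *Kit* alone of that list, and skin, a list added after the data were seen, at -0.08 without HFD mouse 12. With the letter R as a covariate, 2 of 5 erythrocyte genes and 3 mesothelial genes were called lower, against 5 and 6. Without the libraries with the letter R, 1 mesothelial gene and 5 immediate early genes were called lower, against 6 and 2. With known Ensembl transcripts, 4 insulin signaling, 3 mesothelial and 1 circadian clock gene were called lower, against 8, 6 and 4. The cause of these changes was not tested. Leaving out genes at 0 in 1 library beside 20 FPKM or more in another was also chosen after seeing the data. Depth is unknown and limits genes near 1 FPKM.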
